A study of Mus musculus with 24 samples.

Results

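Retnla, Retnlg, Chil1, Chil3 and Chil4 were followed through 4 sorted myeloid populations of mouse colon. They encode secreted proteins of the resistin-like and chitinase-like families. The 5 genes were matched by Ensembl identifier in a table of 17301 genes, and all 5 were present. They were chosen by family and with measured values in view, because Retnla had been seen to be lost in tumour macrophages. The levels in tumour macrophages against macrophages of the healthy lamina propria (LP) are therefore given as a description, with no test of the members. F4/80hi MHCIIhi macrophages, F4/80hi MHCIIlow macrophages, monocytes and neutrophils were sorted from 2 tissues. LP came from mice labelled C57/BL (C57BL/6J in the methods) and tumours came from the colon of Apc Min/+ animals (labelled APC/Min), which carry a germline Apc mutation and form intestinal adenomas. The mice were 3 to 4 months old. The 24 libraries fell into 8 groups of 3, and 13 to 15 mice were pooled for each, so that the spread between libraries is a spread between pools. The tumour-bearing mice had drunk dextran sodium sulphate, which injures the colon epithelium. The methods give it to control mice too, at another concentration, whereas the labels call the LP healthy, so the treatment of the LP donors is not settled. Tumour, genotype, treatment and pool differed together between tumour and LP, and their parts in a difference cannot be told apart.

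Resistin-like proteins are small secreted proteins with conserved cysteines. Retnla (also called RELM-alpha or Fizz1) is a well-known product of macrophages exposed to interleukin 4 or interleukin 13, which signal through a shared receptor chain, Il4ra, to the transcription factor Stat6. Retnlg (RELM-gamma) is known from bone marrow and neutrophils. Chitinase-like proteins have the fold of chitinases but have lost the enzyme activity. Chil1 (BRP-39, the mouse counterpart of human YKL-40) is made by neutrophils, macrophages and epithelial cells, and Chil3 (Ym1) and Chil4 (Ym2) are close relatives, of which Chil3 is widely used as a marker of alternatively activated macrophages and is also abundant in myeloid precursors.

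The members lie in 3 places on GRCm38, and the RNA of all 5 is protein coding in GENCODE M21. Retnla (ENSMUSG00000061100.3, chr16:48842551-48844461) and Retnlg (ENSMUSG00000022651.5, chr16:48872621-48874496) are neighbours on the plus strand of chromosome 16, 28159 bases apart. Chil3 (ENSMUSG00000040809.10, chr3:106147554-106167564) and Chil4 (ENSMUSG00000063779.5, chr3:106201490-106219507) are neighbours on the minus strand of chromosome 3, 33925 bases apart. Chil1 (ENSMUSG00000064246.6, chr1:134182176-134190181) stands on the plus strand of chromosome 1, 30635 bases from the chitinase gene Chit1. The longest annotated transcripts of Retnla and Retnlg were identical at 82.8% of 599 aligned positions and those of Chil3 and Chil4 at 94.3% of 1540. Read-length pieces (51 bases) of Retnla, Retnlg and Chil1 occurred in no other gene. In Chil3 26.2% of such pieces also occurred in another gene (16.4% in Chil4), and in Chil4 10.7% did (9.67% in Chil3), so the split of reads between these 2 genes is uncertain.

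The resistin-like pair is shown because these neighbours share promoter sequence yet differed in level over the populations. Each run holds 250 bases before and 50 after the start of the gene in RefSeq (GRCm38.p6), 5′ to 3′, and capitals mark matches to TTCNNNNGAA (the spacing that Stat6 prefers), TTCNNNGAA (the spacing of other STAT factors) or TTNNGCAA (a C/EBP type site), searched on both strands. Retnla is at chr16:48842359-48842658 and Retnlg at chr16:48872358-48872657, both on the plus strand.
Retnla: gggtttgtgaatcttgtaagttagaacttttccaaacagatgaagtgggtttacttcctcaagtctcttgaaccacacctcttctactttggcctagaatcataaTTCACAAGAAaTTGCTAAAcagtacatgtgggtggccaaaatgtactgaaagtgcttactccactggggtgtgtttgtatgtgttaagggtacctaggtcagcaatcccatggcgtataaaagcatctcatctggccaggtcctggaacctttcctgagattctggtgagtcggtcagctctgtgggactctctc
Retnlg: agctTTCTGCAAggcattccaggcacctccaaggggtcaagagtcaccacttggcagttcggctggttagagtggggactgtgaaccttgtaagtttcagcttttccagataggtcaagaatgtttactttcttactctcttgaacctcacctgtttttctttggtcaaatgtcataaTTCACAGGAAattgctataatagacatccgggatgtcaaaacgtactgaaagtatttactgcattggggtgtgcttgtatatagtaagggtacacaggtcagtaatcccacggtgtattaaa
The overlapping parts of these windows were identical at 78.1% of 228 aligned positions. Each window held 1 match to the Stat6 type letters, at −145 from the RefSeq start in Retnla and −72 in Retnlg. The windows start at different places of the shared sequence. In GENCODE M21 Retnla starts further upstream, at 48842551, so part of its window before the RefSeq start lies within the gene. Retnlg starts further downstream there, at 48872621. The offset between these sites therefore depends on the annotation. Of 32851 mouse promoter windows of this length, 6.95% held a match to the Stat6 type letters. Both genes also held 1 C/EBP type match, as did 10.8% of all windows.

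The windows of Chil3 (chr3:106167515-106167814) and Chil4 (chr3:106219430-106219729), both on the minus strand, are shown because these genes shared a pattern over the groups at very different levels.
Chil3: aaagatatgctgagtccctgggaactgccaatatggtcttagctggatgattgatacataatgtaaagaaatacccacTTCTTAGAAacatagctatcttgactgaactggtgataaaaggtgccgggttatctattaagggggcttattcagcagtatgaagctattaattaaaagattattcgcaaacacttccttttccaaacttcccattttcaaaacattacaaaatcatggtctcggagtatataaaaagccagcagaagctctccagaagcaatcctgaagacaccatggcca
Chil4: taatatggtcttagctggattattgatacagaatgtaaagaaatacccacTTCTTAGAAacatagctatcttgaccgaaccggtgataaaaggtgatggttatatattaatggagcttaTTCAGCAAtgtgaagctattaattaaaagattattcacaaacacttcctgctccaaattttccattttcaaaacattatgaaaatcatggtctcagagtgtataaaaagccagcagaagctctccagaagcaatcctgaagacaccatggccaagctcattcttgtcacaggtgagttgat
They were identical at 91.9% of 273 aligned positions. Both held the same 9 letters of the other STAT type, at −172 in Chil3 and −200 in Chil4, a match that 8.3% of all windows had. These positions count from the RefSeq starts. In GENCODE M21 Chil4 starts further upstream, at 106219507, while the Chil3 start is the same in both. The offset between these sites therefore depends on the annotation. Chil4 alone of the pair held a C/EBP type match, at −131, and the window of Chil1 held none of the 3 motifs. A match is a description of the letters and was not tested for binding.

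Levels are given as RPKM, reads scaled by gene length and library size, computed from the whole reads behind the deposited log2 RPKM. Between 12.8 and 41.7 M reads per library fell on genes, with a median of 26.4 M. Among counts of 1 to 20, 61.9 to 72.2% were even in each library where unpaired counting would give close to equal shares, so a low count of reads may stand for fewer molecules. The labels held against markers. The summed RPKM of the 8 macrophage markers was 3470 to 7460 in macrophage libraries against 192 to 807 in the others, that of the 5 neutrophil markers 11100 to 26600 in neutrophils against 23.3 to 145 elsewhere, and that of the 5 monocyte markers 323 to 660 in monocytes against 2.33 to 19.1 in macrophages, though neutrophils reached 571 to 985. Since the RNA is of bulk samples, fewer expressing cells and less RNA per cell cannot be told apart.

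**Figure D1:**
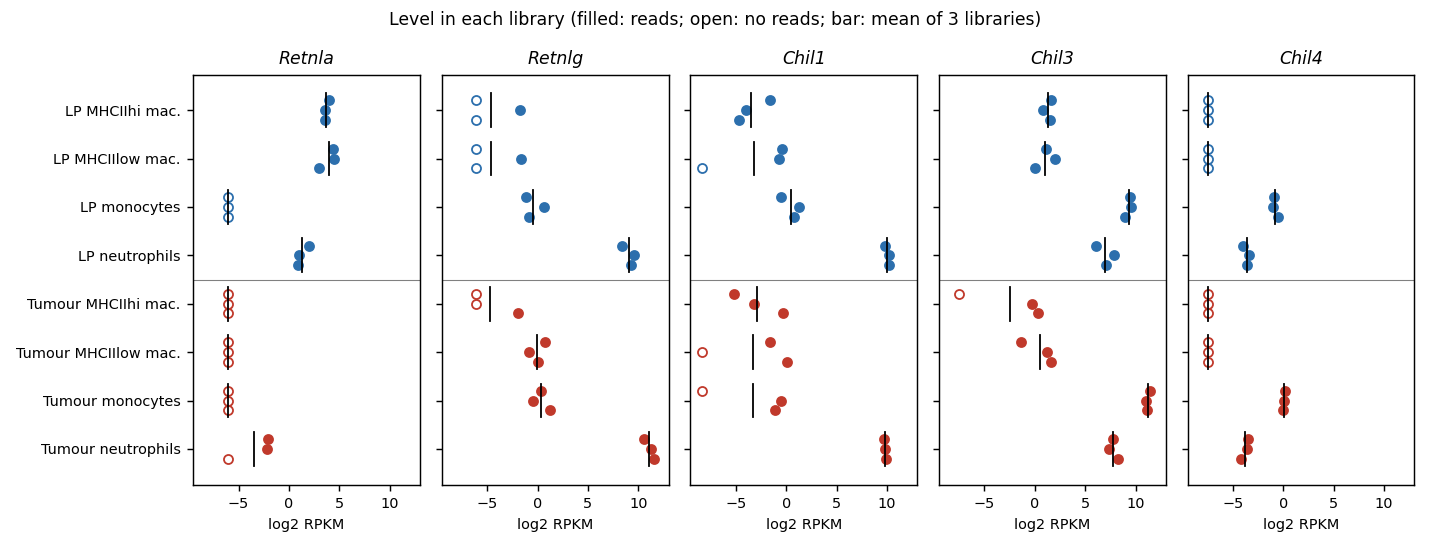
Level of each member (log2 RPKM, x axis) in the 3 libraries of each of 8 groups (y axis, LP in blue above the line, tumour in red below it). Filled points had reads, open points had none and stand at the value given by the prior count, and black bars are group means. Retnla is open in all 6 tumour macrophage libraries, Retnlg and Chil1 are highest in neutrophils, and Chil3 and Chil4 in monocytes.

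Retnla was found in LP macrophages and not in tumour macrophages. LP MHCIIhi macrophages held 11.7, 11.6 and 15.3 RPKM in libraries III, IV and V, from 287 to 332 reads. LP MHCIIlow macrophages held 7.98, 22.5 and 20.6 RPKM in libraries II, III and IV, from 198 to 290 reads. All 6 tumour macrophage libraries had 0 reads, at a floor of 3 reads per library that corresponds to a mean of 0.156 RPKM in MHCIIhi and 0.161 RPKM in MHCIIlow macrophages. Against this floor the LP level was at least 82.4-fold higher in MHCIIhi and at least 106-fold higher in MHCIIlow macrophages. The groups did not overlap, and these values are those that drew attention to the gene.

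Between the LP macrophage subsets Retnla overlapped. MHCIIlow exceeded MHCIIhi macrophages by 0.28 on the log2 scale (95% interval −1.49 to 2.04, limma adjusted p = 0.931), and LP library II of the MHCIIlow subset was the lowest of the 6. LP macrophages were compared with LP monocytes, which had 0 reads of Retnla in each of 3 libraries. MHCIIhi macrophages were at least 85.7-fold and MHCIIlow macrophages at least 113-fold higher than monocytes, which is a description, since these macrophage values took part in the choice of the gene. The 3 tumour monocyte libraries had 0 reads as well.

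Markers of other cells differed between LP and tumour macrophages too. The summed RPKM of all 5 fibroblast markers was 6.42 to 51.7 in LP macrophages and 0.168 to 1.16 in tumour macrophages, with Pdgfra without reads in tumour MHCIIlow macrophages. LP monocytes reached 9.49 to 25.2 on this list. The 4 B and plasma cell markers summed to 10 to 223 in LP and 1.23 to 65.4 in tumour macrophages, and to 155 to 570 in LP monocytes. The 7 dendritic cell markers summed to 51.4 to 73.7 in LP MHCIIhi and 5.03 to 14.8 in tumour MHCIIhi macrophages, to 9.49 to 17.1 and 3.86 to 5.97 in the MHCIIlow subsets, and to 36.7 to 43.3 in LP monocytes. The part of fibroblasts, B and plasma cells and dendritic cells in the macrophage values was not tested.

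Beside LP macrophages only neutrophil libraries held Retnla reads, and there the level was lower in tumours than in LP. LP neutrophils held 1.82, 1.99 and 4.05 RPKM, from 26, 16 and 52 reads. Tumour neutrophils held 0, 0.205 and 0.218 RPKM, from 0, 1 and 1 read. No library of the tumour group was above the floor, and LP neutrophils were at least 4.7-fold higher. The call (limma adjusted p = 2.54e-04) held in 14 of 15 alternatives and missed the threshold at 0.055 in the fit of only the 6 libraries compared, the highest of a range from 6.02e-06. Monocytes and tumour macrophages had no Retnla reads, so their spread was 0 and narrowed the spread shared by all groups. Only the fit that lost the call left these groups out. Between tumour and LP neutrophils 32.2% of all 12878 genes tested passed the threshold.

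The tumour effect on Retnla in neutrophils differed from that in monocytes (limma adjusted p = 0.0165), where 9.11% of all genes passed. Monocytes had 0 reads in both tissues, so this difference restates the fall in neutrophils. It was lost in the fit of only the libraries compared (0.0938) and with voom on the recovered reads (0.137), within a range of 0.00181 to 0.137.

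LP neutrophils held less Retnla than LP macrophages, at 4.92-fold below the MHCIIhi and 6.5-fold below the MHCIIlow mean, with no overlap. Against LP monocytes they were at least 17.4-fold higher (limma adjusted p = 4.33e-07). Retnla reached a group mean of 1 RPKM, needed for testing, only in LP groups. LP monocytes had no reads and a spread of 0, so the p value is given as a description. Between these groups 54.5% of all genes passed. In tumours neutrophils also passed against monocytes (adjusted p = 0.0119, limma), a call that rests on 2 reads in all with both groups at or under the floor. It was lost without tumour neutrophil library II (0.0711) or V (0.0721) and in 7 of 15 alternatives, over which it ran from 5.73e-05 to 0.595.

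Other cells' markers stood beside the neutrophil result. Of 8 eosinophil markers 3 were in the table, and they summed to 21.7 to 42.2 RPKM in LP and 20.6 to 30.8 RPKM in tumour neutrophils, with Siglecf making up most of it in both and Prg2 without reads in tumour neutrophils. The 7 dendritic cell markers summed to 93.3 to 187 RPKM in LP and 2.8 to 20.5 RPKM in tumour neutrophils, and the 4 B and plasma cell markers to 354 to 1280 RPKM and 0.628 to 19.6 RPKM. Fibroblast markers summed to 17.9 to 35.1 RPKM in LP and 1.25 to 1.56 RPKM in tumour neutrophils. Macrophage markers summed to 192 to 227 RPKM and 220 to 270 RPKM. Mgl2, a lectin of macrophages and dendritic cells, was at 12.1 to 28 RPKM in LP against 0 to 1.74 RPKM in tumour neutrophils. The part of these cells in the Retnla of LP neutrophils was not tested.

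Retnlg was a gene of neutrophils in both tissues. LP neutrophils held 631, 752 and 325 RPKM in libraries III, IV and V. Tumour neutrophils held 3089, 2380 and 1476 RPKM in libraries I, II and V. The tumour libraries all exceeded the LP libraries, and the ratio of the means was 4.07. The log2 difference was 2.05 (95% interval −0.52 to 4.61, limma adjusted p = 0.22) with a spread shared by all 8 groups, which for this gene includes macrophage libraries with and without reads. It passed the threshold in 4 of 15 alternatives, among them the fit of only the neutrophil libraries (0.0297) and voom on the recovered reads (4.23e-06), over a range up to 0.404. Deposited values already carry a scaling between libraries, and library sizes taken as summed reads shift all tumour against LP neutrophil values by −0.468 (log2), which left this difference at 1.58.

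Outside neutrophils Retnlg stood near the floor. Monocytes held 0.523, 1.57 and 0.452 RPKM in LP and 2.304, 0.698 and 1.27 RPKM in tumours, and these overlapped. Neutrophils exceeded monocytes 672-fold in LP and 1630-fold in tumours (limma adjusted p = 2.02e-06 and 3.36e-07). LP macrophages had reads in 1 of 3 libraries of each subset, at 0.275 and 0.305 RPKM. Macrophages were below monocytes in LP (limma log2 fold change −4.19, adjusted p = 0.00523), a call lost with voom (0.0625) alone of 18 alternatives, and in tumours the difference of −2.73 was near the threshold (limma adjusted p = 0.0484) and passed it in only 5 of 18 alternatives, over 0.00987 to 0.178.

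Within tumours the Retnlg values of the macrophage subsets lay apart, but limma did not call the difference. MHCIIlow macrophages held 1.05, 0.527 and 1.65 RPKM from 17, 14 and 28 reads, and MHCIIhi macrophages 0.240, 0 and 0 RPKM from 4 reads in library I. The groups did not overlap, and the limma log2 difference was 4.70 (95% interval 2.14 to 7.27), with an adjusted p of 0.0697 and 1.13% of all genes called. It passed without tumour MHCIIhi library I (0.0245) and in 2 other alternatives of 15, which ran up to 0.318. Ly6g, which marks neutrophils, had 40, 0 and 6 reads in the tumour MHCIIlow libraries and none in the MHCIIhi libraries, while the 5 neutrophil markers summed to 32.2 to 42 RPKM and 34.3 to 51 RPKM. Their median log2 fold change, MHCIIlow against MHCIIhi, was 2.025. Limma called 1 of the 5, Csf3r, which was lower in MHCIIlow macrophages (log2 fold change −0.71). The part of neutrophils in the Retnlg difference was not tested.

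Chil1 shared the neutrophil pattern but not the tumour difference. LP neutrophils held 1197, 1150 and 874 RPKM and tumour neutrophils 939, 901 and 820 RPKM, and the groups overlapped. The log2 difference was −0.27 with a wide interval (−4.77 to 4.24, limma adjusted p = 0.954) from a spread shared with groups near 0. Within the neutrophil groups the SD was 174.5 RPKM in LP and 60.9 RPKM in tumours, around means of 1074 and 886 RPKM. All other groups were below 2.5 RPKM. LP monocytes held 1.67, 2.46 and 0.686 RPKM and tumour monocytes 0.464, 0.707 and 0 RPKM, which overlapped (limma adjusted p = 0.322). Neutrophils exceeded monocytes 668-fold in LP (limma adjusted p = 9.28e-04) and 2270-fold in tumours (limma adjusted p = 3.24e-05).

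Chil3 was a gene of monocytes, followed by neutrophils. LP monocytes held 485, 768.5 and 698 RPKM in libraries III, IV and V, and tumour monocytes 2212, 2146 and 2789 RPKM in libraries I, II and V. The groups did not overlap and the ratio of the means was 3.66. With the shared spread the log2 difference was 1.89 (95% interval −0.76 to 4.54, limma adjusted p = 0.42), and 9.29% of all genes were called. The fit of only the monocyte libraries gave 0.0167, log2(RPKM + 1) 0.00515 and voom 1.26e-04, and the other 12 of 15 alternatives did not call it (up to 0.604). Tumour MHCIIhi macrophage library VII had no Chil3 read where the other 2 had 54 and 60, and it enters this shared spread.

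Markers of other cells differed between the monocyte groups as well. The 9 epithelial and goblet cell markers measured summed to 17.2 to 118 RPKM in LP and 103 to 267 RPKM in tumour monocytes, with Lgals4, Krt8 and Krt18 called higher by limma and Clca1 without reads. The B and plasma cell list went from 155 to 570 RPKM down to 0.0114 to 3.03 RPKM, and the fibroblast list from 9.49 to 25.2 RPKM down to 0 to 0.17 RPKM, with 4 of its 5 genes without reads in tumours. The 5 monocyte markers summed to 323 to 457 RPKM and 404 to 660 RPKM, with 0 called between the groups by limma. The part of other cells in the Chil3 and Chil4 values was not tested.

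Neutrophils held 135, 234 and 67.3 RPKM of Chil3 in LP and 296, 169 and 224 RPKM in tumours, which overlapped, with a ratio of 1.58 (limma adjusted p = 0.672). They were 10.4-fold below monocytes in tumours (limma log2 fold change −3.40, adjusted p = 0.0273), a call lost in 5 of 6 fits that left out 1 library and with libraries centred on their median. In LP neutrophils were 4.47-fold below monocytes with no overlap, without passing the threshold (limma log2 fold change −2.31, adjusted p = 0.131, 2.73e-06 to 0.296 over 15 alternatives, 5 of which called it).

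Macrophages, in which Chil3 is often read as a sign of alternative activation, held little. LP MHCIIhi macrophages had 2.80, 1.77 and 2.97 RPKM and LP MHCIIlow macrophages 1.03, 3.98 and 2.15 RPKM. Tumour MHCIIhi macrophages had 1.21, 0.831 and 0 RPKM, below every LP MHCIIhi library, and tumour MHCIIlow macrophages 2.998, 2.34 and 0.394 RPKM, overlapping LP. Monocytes exceeded macrophages 259-fold (MHCIIhi) and 273-fold (MHCIIlow) in LP, and 3510-fold and 1250-fold in tumours (limma adjusted p = 1.11e-05 and 2.48e-08 with the subsets together).

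Chil4 followed Chil3 at a far lower level, and passed the filter on low values through tumour monocytes. The deposited values imply a Chil4 length of 1632 bases where GENCODE M21 has 2817 exon bases. At the latter length every Chil4 RPKM would be 1.73 times lower, and the tumour monocyte mean would be 0.592 in place of 1.02 RPKM and miss the filter, while differences between groups would stay. LP monocytes held 28, 35 and 30 reads (0.682, 0.487 and 0.505 RPKM) and tumour monocytes 46, 48 and 46 reads (0.940, 1.04 and 1.09 RPKM). The tumour libraries all lay higher, by a ratio of 1.83 of the means (limma adjusted p = 0.539, called with log2(RPKM + 1) alone of 14 alternatives, at 0.0315, within a range up to 0.67). Neutrophils had 1 to 3 reads in each library, and all 12 macrophage libraries had 0 reads. Per 1000 reads of Chil3 monocytes held 0.633 to 1.41 reads of Chil4 in LP against 0.39 to 0.485 in tumours. The same ratio in neutrophils was 0.389 to 0.847 (LP) and 0.166 to 0.445 (tumours). Macrophages had at most 188 reads of Chil3, so that such a ratio would leave Chil4 below 1 read there. How many Chil4 reads come from Chil3 RNA was not tested.

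**Figure D2:**
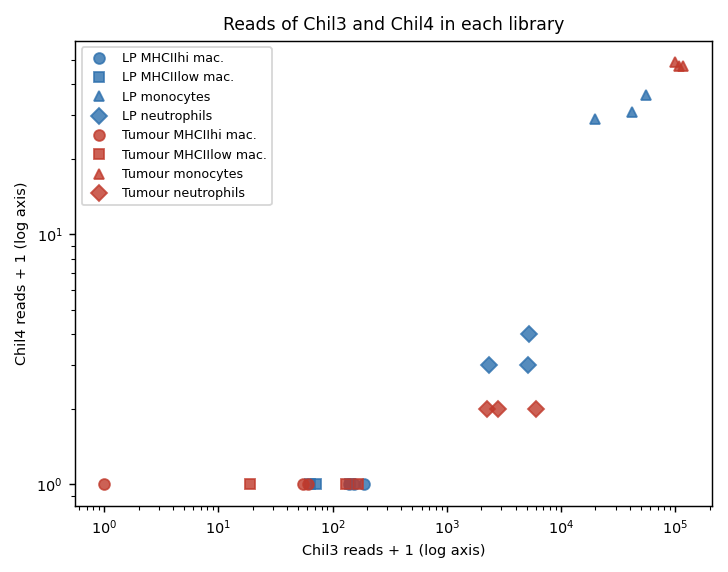
Reads of Chil3 (x axis) and Chil4 (y axis), each plus 1 on a log axis, in the 24 libraries, with shapes for populations and blue for LP, red for tumour. Chil4 reaches 28 to 48 reads where Chil3 has 19917 or more, and stands at 0 in every macrophage library.

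The members' calls were set against those of all genes. Between tumour and LP monocytes limma called 0 of 5 members (0 at an unadjusted p under 0.05, and 1 with voom), against 9.29% of all genes. Between tumour and LP neutrophils it called 1 of 5, Retnla, and voom 2, against 32.2% of all genes. Between MHCIIlow and MHCIIhi macrophages limma called 0 of 5 in LP (none at an unadjusted p under 0.05 or with voom), where 7.7% of all genes passed, and 0 of 5 in tumours, where 1.13% did (2 at an unadjusted p under 0.05, Retnlg and Chil3, and 0 with voom). A member without reads in both groups could not be called. This held for Chil4 between the macrophage subsets of both tissues. It held for Retnla between tumour macrophage subsets and between tumour and LP monocytes. Macrophages differed from monocytes in 3 of the other 4 members in LP (29.5% of all genes) and in 3 of 4 in tumours (38.3% of all genes), and Retnla, whose macrophage values took part in its choice, is not counted. Neutrophils differed from monocytes in 4 of 5 members in LP (54.5% of all genes) and in 5 of 5 in tumours (58.1% of all genes), or in 3 without tumour neutrophil library II or V. Chil4 passed the filter on low values through tumour monocytes and Retnla through LP groups, so the counts are a description of all 5 members and no support for a difference.

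**Figure D3:**
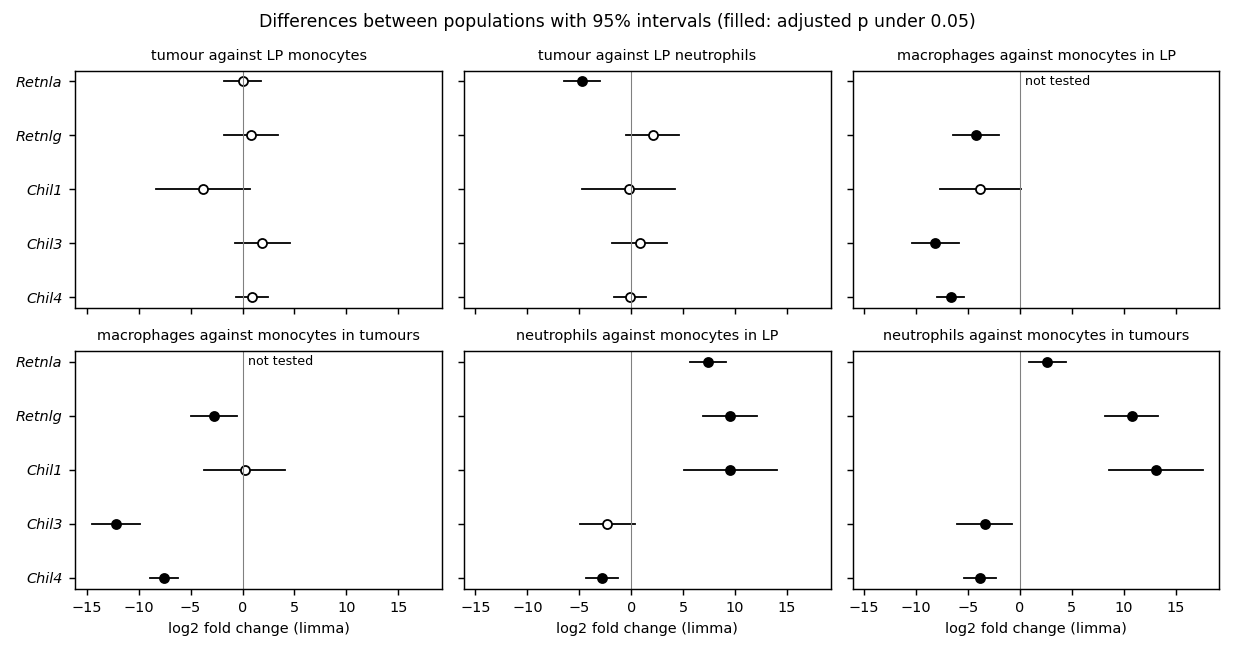
Log2 fold change from limma (x axis) of each member (y axis) in 6 comparisons, with 95% intervals as lines and filled points where the adjusted p was under 0.05. Retnla is lower in tumour than in LP neutrophils and is not tested where macrophages take part, while Chil3 and Chil4 lie on the monocyte side and Retnlg and Chil1 on the neutrophil side. Sizes against groups without reads depend on the prior count.

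The relatives of the members were mostly low. Of the resistin family Retn, the hormone resistin of fat cells, was measured and Retnlb was not in the table. In neutrophils Retn was at 1.51 to 3.04 RPKM (LP) and 1.07 to 2.49 RPKM (tumours). It had 0 reads in LP monocytes and 15, 6 and 10 reads in tumour monocytes (limma adjusted p = 4.19e-04), so the 3 tumour libraries all lay higher, at 0.134 to 0.317 RPKM. LP MHCIIlow macrophages and both tumour macrophage subsets had no Retn reads either. The spread of 0 in the groups without reads narrowed the spread shared by all groups. Retn reached a group mean of 1 RPKM, needed for testing, only in neutrophils.

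Of 7 further genes of the chitinase family 6 were in the table and 5 were tested. Chil5 was at 5.38, 6.71 and 2.88 RPKM in LP neutrophils and 57.0, 24.3 and 33.7 RPKM in tumour neutrophils, with no overlap but no call (limma log2 fold change 2.93, 95% interval −0.03 to 5.90, adjusted p = 0.125), and 16.2% of its pieces of 51 bases also occur in a predicted gene. Chit1, an active chitinase of macrophages, was lower in tumour than in LP monocytes (limma adjusted p = 0.0221), where LP libraries ran from 0.225 to 18.3 RPKM and tumour libraries from 0 to 0.526 RPKM, and these overlapped. Chid1 was higher in tumour than in LP MHCIIlow macrophages (limma log2 fold change 1.11, adjusted p = 0.0128), at 2.83 to 3.95 RPKM against 1.21 to 2.17 RPKM. Chia1, the acidic chitinase, had at most 1.14 RPKM. Ovgp1 and Ctbs did not pass between tumour and LP in any of the 4 populations.

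The genes of the pathway that induces Retnla were compared between tumour and LP macrophages. Of 16 listed genes of interleukin 4 and 13 signalling 14 were tested, and both cytokine genes were absent from the table. In MHCIIhi macrophages 2 rose and 6 fell, with a median log2 fold change of −0.49 against 0 over all genes, and 8.01% of all genes rose and 11.5% fell. In MHCIIlow macrophages 5 rose and 5 fell, with a median of 0.06 against 0.06 over all genes, of which 11.5% rose and 11.8% fell. Il4ra, the receptor chain shared by both cytokines, stood at 512, 450 and 505 RPKM in LP MHCIIhi macrophages and 114, 130 and 131.5 RPKM in tumour MHCIIhi macrophages. It fell by 1.96 on the log2 scale in MHCIIhi (limma adjusted p = 1.75e-08) and by 2.11 in MHCIIlow macrophages (limma adjusted p = 4.84e-09), with no overlap. In monocytes, which had no Retnla in either tissue, it was at 212 to 248 RPKM in LP and 199 to 256 RPKM in tumours (limma adjusted p = 0.889).

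The kinases and factors of the pathway did not move together. Jak1, a kinase on the receptor, fell in the MHCIIhi and MHCIIlow subsets (limma log2 fold changes −0.80 and −1.03, adjusted p = 1.56e-05 and 5.99e-07). Tyk2, the kinase of the alternative receptor, rose by 1.11 and 0.72 (limma adjusted p = 2.62e-04 and 0.00809), as did Il13ra1, the second chain of that receptor, by 0.99 and 0.82 (limma adjusted p = 8.68e-05 and 4.54e-04). Stat6 changed by 0.02 in MHCIIhi macrophages (95% interval −0.20 to 0.24, limma adjusted p = 0.931) and rose by 0.34 in MHCIIlow macrophages (limma adjusted p = 0.0224). Spi1, a factor of myeloid cells, fell in MHCIIhi macrophages (limma log2 fold change −1.15, adjusted p = 0.0407) and Klf4, which acts with Stat6, in MHCIIlow macrophages (limma log2 fold change −1.85, adjusted p = 5.94e-04). Irf4, a factor of alternative activation, fell as well (limma log2 fold changes −1.98 and −4.96, adjusted p = 0.0446 and 1.74e-05), and Socs1, an inhibitor that the pathway itself induces, fell by 2.04 in both (limma adjusted p = 3.58e-04 and 2.72e-04). In tumour against LP neutrophils, where Retnla also fell, 4 of the 14 rose and 3 fell, and 32.2% of all genes changed. Pparg, a nuclear receptor, was at 0 to 0.0844 RPKM in LP and 1.36 to 2.42 RPKM in tumour neutrophils (limma adjusted p = 1.01e-04). Irf4, Socs1 and Il4ra fell there, with limma log2 fold changes of −2.88, −2.42 and −0.98 (adjusted p = 0.00276, 3.8e-05 and 3.23e-05). In monocytes 4 rose (Tyk2, Il13ra1, Jak3 and Stat6) and 0 fell, where 9.29% of all genes changed.

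Other targets of alternative activation moved in both directions where Retnla was absent. Of 17 listed genes 16 were tested. In tumour against LP MHCIIhi macrophages 1 rose and 3 fell, where 8.01% of all genes rose and 11.5% fell. In MHCIIlow macrophages 4 rose and 4 fell, where 11.5% of all genes rose and 11.8% fell. The medians were −0.52 and 0.49 (log2), against 0 and 0.06 over all genes. Slc7a2, an arginine transporter, rose by 1.79 and 2.71 (limma adjusted p = 0.0112 and 3.06e-04), and F13a1, a clotting factor subunit, fell (limma log2 fold changes −2.95 and −4.04, adjusted p = 2.89e-04 and 6.89e-06). Flt1, a receptor of vascular growth factors, had 40 to 224 reads per library in LP and 0 to 2 in tumour MHCIIhi macrophages (limma adjusted p = 1.2e-04), and Tgm2, a transglutaminase, fell in that subset (limma log2 fold change −1.01, adjusted p = 0.0154). In MHCIIlow macrophages the scavenger receptor Cd163 and the chemokine Ccl24 fell (limma log2 fold changes −5.29 and −2.93, adjusted p = 0.00887 and 0.00387) and Pdcd1lg2, a checkpoint ligand, rose by 2.77 (limma adjusted p = 2.88e-04). Arg1, arginase 1, stood at 64.5 to 135 RPKM in tumour and 29.9 to 47.7 RPKM in LP MHCIIhi macrophages (limma adjusted p = 0.112) and rose by 2.23 in MHCIIlow macrophages (limma adjusted p = 0.00716). Mrc1, the mannose receptor, was at 116 to 173 RPKM in tumour and 182 to 205 RPKM in LP MHCIIhi macrophages (limma adjusted p = 0.721) and fell by 1.67 in MHCIIlow macrophages (limma adjusted p = 0.0464). Arg1 and Mrc1 thus kept reads in tumour macrophages that had none of Retnla. In tumour against LP monocytes Egr2 rose and Mrc1 fell (1 of 16 each, limma log2 fold changes 1.44 and −2.60), where 9.29% of all genes changed. In neutrophils 4 rose and 5 fell, where 32.2% of all genes changed. Those that fell were led by Clec10a, Mgl2, Ccl22 and Cd163, which ran from 0 to 1.91 RPKM in tumours.

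**Figure D4:**
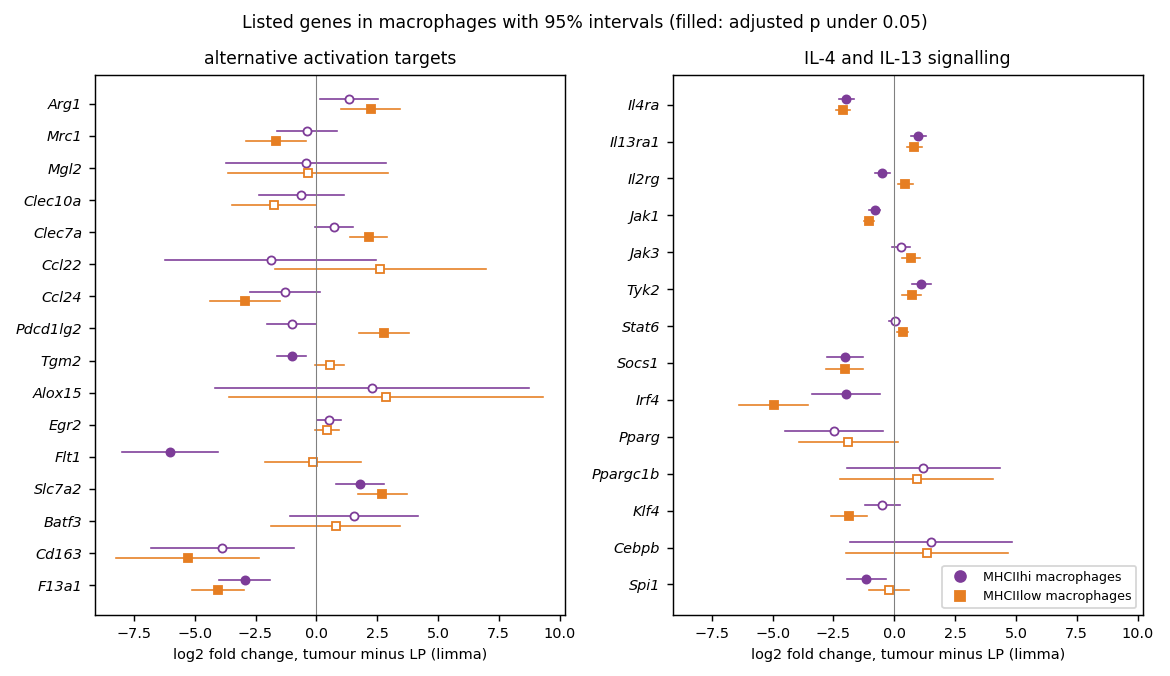
Log2 fold change from limma, tumour minus LP (x axis), of 16 alternative activation targets (left) and 14 genes of interleukin 4 and 13 signalling (right) in MHCIIhi (circles) and MHCIIlow (squares) macrophages, with 95% intervals as lines and filled points where the adjusted p was under 0.05. Il4ra falls in both subsets, and the targets lie on both sides of 0.

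Proteins reported to bind the members, and the granule genes of neutrophils, were the remaining lists. Of 4 binding partners 3 were tested. Tlr4, a pattern receptor reported to bind resistin, fell in both tumour macrophage subsets, with log2 fold changes of −0.75 in MHCIIhi and −0.67 in MHCIIlow (limma adjusted p = 0.0196 and 0.0322), and Cap1, reported as a resistin receptor, rose in tumour neutrophils by 0.56 (limma adjusted p = 0.0419). Tmem219, a partner of the receptor for Chil1, did not pass between tumour and LP in any population. Of 11 granule genes 8 were tested, and beside Retnlg in tumour neutrophils Mmp9 and Cd177 rose (2 of 8, limma log2 fold changes 1.58 and 2.33) and 0 fell, where 32.2% of all genes changed. In tumour against LP MHCIIlow macrophages, where Retnlg had reads in all tumour libraries, 3 of 8 rose (Mmp9, Mmp8 and Cd177) and 0 fell, where 11.5% of all genes rose. In the MHCIIhi subset 1 of 8 rose, Mmp9, near the 8.01% of all genes, and in monocytes 1 of 8 rose, Mmp9, near the 9.29% of all genes that changed.

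Likeness was measured as Pearson's r over the 8 group means of log2 RPKM among 5271 genes, as a description of points that share libraries. Chil3 and Chil4 were alike (r = 0.955), as were Retnlg and Chil1 (r = 0.934), whereas Retnla was near 0 with Retnlg (−0.093) and Chil1 (0.098) and negative with Chil3 (−0.236) and Chil4 (−0.422). Without reads, the means of Retnla in monocytes and tumour macrophages are 1 prior value, as are those of Chil4 in macrophages. The choice of Retnla used its tumour macrophage values, so genes like it are no support for a shared pattern. The genes nearest to Retnla were Peli1 (0.915), R3hcc1l (0.905) and Notch1 (0.903), those nearest to Retnlg were Ly6g (0.997), Ints12 (0.995) and Prok2 (0.992), and those nearest to Chil1 were Atg2a (0.993), Cpne2 (0.990) and Mob3a (0.990). F10 was nearest to both Chil3 (0.982) and Chil4 (0.966), followed by Arf5 and Plac8 for Chil3 and by Rhou and Inhba for Chil4.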

How the data were processed

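The authors prepared SMARTSeq v2 libraries, sequenced paired ends of 51 cycles, aligned them to GRCm38/mm10 with STAR 2.3, counted reads with featureCounts 1.5 (GENCODE) and dropped genes with few reads. The values they deposited are log2 RPKM for 24 libraries, and the submitters' processing notes name edgeR. The values fit a prior of 0.25 reads and scaled library sizes, and 100% of 415224 values were whole reads (tolerance 0.01). Folds over a group with no library above 3 reads are lower bounds.

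Groups were compared with limma 3.58.1 (R 4.3.3, eBayes with a trend) on the deposited log2 values, 8 group means and all 24 libraries, over 12878 genes that reached a group mean of 1 RPKM. P values were Benjamini-Hochberg adjusted within each comparison (threshold 0.05). They measure the spread between pools. The fit was tested on simulated data in which all genes had the same dispersion and the changed genes had many reads. It does not bear on members without reads in some groups. Members and lists (other resistin and chitinase family genes, binding partners, interleukin 4 and 13 signalling, alternative activation targets, neutrophil granule genes, cell type markers) were chosen with earlier results of these data known. Named from each list were up to 4 called genes of largest change between tumour and LP in each population, all relatives of the members in the table and the 3 genes most like each member. Further genes named (Arg1, Mrc1, Mgl2, Siglecf, Stat6, Tyk2, Jak1, Il13ra1 and Slc7a2, Ly6g, Prg2 and Pdgfra in part) were chosen after their values were seen. The 10 cell type marker lists are given as summed RPKM with single genes where stated, and those not named elsewhere ran, over all libraries, from 7.17 to 300 (epithelial and goblet), 0.279 to 21.8 (mast) and 0 to 6.08 RPKM (T and NK). Coordinates are GENCODE M21, and promoter windows RefSeq GRCm38.p6, with all 5 members matched. No protein sequence was used here.

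Alternatives were log2(RPKM + 1), log2(RPKM + 0.1), no filter, a minimum group mean of 5 RPKM, median centring, only the libraries compared, voom on recovered reads, the donor number as a random block, each library left out in turn, and, chosen after seeing the data, library sizes as summed reads. Library numbers are donors per the labels, which pairs libraries within a tissue. Over 29 such pairs the correlation of deviations ran from −0.066 to 0.255 (median 0.017), and the consensus was 0.048. Tables and figures used python 3.11.15, numpy 2.4.6, pandas 2.3.3, biopython 1.88 and matplotlib 3.10.9.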

Additional observations from a re-analysis of the deposited data

Results flagged for a closer look

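The tumour effect on Retnla differed between neutrophils and monocytes in a test of the difference itself, with a limma log2 difference of −4.76 (standard error 1.20, adjusted p = 0.0165). LP neutrophils held 1.82 to 4.05 RPKM and tumour neutrophils 0 to 0.218 RPKM, while the 6 monocyte libraries had 0 reads, so the size depends on the prior count and the difference rests on neutrophils alone. The standard error comes from a spread shared with groups without Retnla reads, whose own spread was 0.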

How the results depend on the processing

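Of 708 recomputed log2 fold changes of members 635 kept their direction and side of the threshold, 20 newly passed it, 30 no longer did and 23, none of them called, changed sign. Chil1 between tumour macrophage subsets went from −0.37 to 0.14 with log2(RPKM + 1), 0.37 with log2(RPKM + 0.1) and −2.07 to 2.14 with a library left out, and between tumour macrophages and monocytes from 0.21 to −0.028, −0.15, −0.28 (voom) and −2.29 to 1.61. Chil4 between tumour and LP neutrophils went from −0.14 to 0.11 (median centring), 0.15 (voom) and −0.31 to 0.0658. Between LP macrophage subsets Chil3 went from −0.24 to 0.0040 (summed reads) and −0.71 to 0.26, and with a library left out Retnlg (0.05) ran from −1.44 to 1.49 and Chil1 (0.28) from −1.07 to 2.85. Among the 5 members, limma called 0 between tumour and LP monocytes, against 2 with log2(RPKM + 1), 1 with only the libraries compared and 1 with voom on recovered reads. Between tumour and LP neutrophils it called 1, against 2 with log2(RPKM + 1), 2 with log2(RPKM + 0.1) and 2 with voom. For the difference of these tumour effects it called 1, against 2 with log2(RPKM + 1), 0 with only the libraries compared and 0 with voom. Between tumour macrophage subsets it called 0, against 1 with log2(RPKM + 0.1), 1 with library sizes as summed reads and 0 to 1 with a library left out (1 without MHCIIhi library I). Retnla and Chil4 had no reads in these subsets and could not be called. Between tumour neutrophils and monocytes limma called 5, against 3 to 5 with a library left out. Of 47 listed genes 23 were called between tumour and LP MHCIIlow macrophages, against 14 with only the libraries compared. Of all genes 11.5% were called higher and 11.8% lower there in the main fit. The cause was not tested.

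Over all genes, calls between tumour and LP monocytes went from 1197 to 768 without tumour monocyte library I, those between neutrophils from 4142 to 2366 with only the libraries compared, those for the difference from 1173 to 1823 with summed reads, and those between MHCIIhi macrophages from 2511 to 3797 with voom. Between LP macrophage subsets they went from 991 to 1695 with log2(RPKM + 1), 1840 with voom and 523 to 1015 with a library left out (lowest without MHCIIhi library III, and low also without MHCIIhi IV or V or MHCIIlow II or IV). Between tumour macrophage subsets they went from 146 to 4 with only the libraries compared, 241 with voom and 31 to 175 with a library left out (lowest without MHCIIlow library V, and low also without MHCIIlow VII or MHCIIhi I or VII).

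The replicate block, with the donor number as a random effect, left the members called at 0 between tumour and LP monocytes and 1 between neutrophils, and changed no other call. Library sizes as summed reads shifted all genes by −1.133 (log2) between tumour neutrophils and monocytes, −0.825 in LP, −0.468 between tumour and LP neutrophils, 0.342 between tumour macrophages and monocytes, and by −0.308 to 0.247 in the other comparisons. A minimum of 5 RPKM left no value for Chil4. Depth limits Retnla in tumours and Chil4 outside monocytes, where libraries held at most 3 reads.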
